A study of Mus musculus with 8 samples.

Results

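The insulin-like growth factor (IGF) axis was examined through 9 genes chosen by name, of 46078 gene IDs in the count tables: the ligands Igf2 and Igf1, the receptors Igf1r and Igf2r, the noncoding RNAs H19 and Airn, and the RNA-binding proteins Igf2bp1, Igf2bp2 and Igf2bp3. RNA-seq reads that overlap a strain difference were assigned to the 129 or the CAST allele in clonal female mouse embryonic fibroblasts (MEFs), labelled as 129S1/SvImJ x CAST/EiJ (the study's text names the 129 strain of the cells 129Sv4/Jae, and 129S1/SvImJ served to assign reads), in which the 129 X chromosome is inactive and the CAST X active. WT cells carried Xist, whose noncoding RNA spreads along the inactive X, and XiΔXist cells lacked it on that chromosome. XiΔXist shSCR and XiΔXist shYY1 cells were XiΔXist cells that had also received a lentiviral short hairpin RNA, scrambled or directed against the transcription factor YY1, and puromycin selection. Replicates were pooled by the authors, so each of the 4 groups was 1 pool with no spread between replicates. WT and XiΔXist were separate clonal lines, so that a difference between clones and an effect of Xist cannot be told apart, and nor can fewer cells of a kind and less RNA per cell.

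IGF1 and IGF2 are secreted growth factors that signal through the receptor tyrosine kinase IGF1R. IGF2R carries no kinase, binds IGF2 at the cell surface and delivers it to lysosomes. In the mouse embryo Igf2 is transcribed from the paternal and H19 from the maternal chromosome, under one imprinting control region on chromosome 7. Igf2r is transcribed from the maternal chromosome, and its antisense transcript Airn from the paternal one, where Airn silences Igf2r in cis. Igf2bp1 to Igf2bp3 encode proteins that bind Igf2 and other mRNAs and govern their stability and translation. Members of an imprinted pair are thus known for opposite alleles, and an allelic share has to be read beside those of the surrounding genes, which show whether both homologs were readable there.

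The hairpin pools were much shallower than the untreated ones, with a total of 24310035 for WT and 28329701 for XiΔXist beside 2393545 for shSCR and 2504345 for shYY1. A single read was worth 0.0411, 0.0353, 0.418 and 0.399 CPM, counts scaled to a library of 1000000 reads, in these pools, in the same order. Xist had 35405 reads in WT and 21, 0 and 6 in the others, and Yy1 was 99.02 CPM in shSCR and 36.7 CPM in shYY1. The 13 fibroblast markers summed to between 6359 and 9597 CPM, with Vim the most read in the untreated pools and Fn1 in the hairpin pools. Twist1 had 0 reads in every pool, S100a4 in WT, Lum in both hairpin pools and Dcn in shSCR. The 19 markers of other cell types summed to between 3.32 and 7.82 CPM. Intervals below are Poisson for levels and their ratios and Wilson for shares, at 95%, and cover counting error only.

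Few reads came from Igf2 or H19. Igf2 (ENSMUSG00000048583, GRCm38 chr7:142650766-142666816, minus strand) had 5 reads in WT, 1 in XiΔXist and 0 in both hairpin pools. Its level was 0.206 CPM (0.0668 to 0.480) in WT and 0.0353 CPM (0.000894 to 0.197) in XiΔXist, and the upper limit of the interval was 1.54 CPM in shSCR and 1.47 CPM in shYY1. The 4 pools were not distinguishable at this depth, and the ratio of XiΔXist to WT was 0.172 with an interval from 0.00363 to 1.53.

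H19 (ENSMUSG00000000031, chr7:142575529-142578143, minus strand), a long noncoding RNA that is abundant in many embryonic tissues, had 10 reads in WT and 0 in XiΔXist, beside 2 in shSCR and 9 in shYY1. These were 0.411 CPM (0.197 to 0.756), 0 CPM (up to 0.130), 0.836 CPM (0.101 to 3.02) and 3.59 CPM (1.64 to 6.82). H19 was highest in shYY1, whose interval overlapped that of shSCR, and it was unread in XiΔXist. With XiΔXist set to a floor of 3 reads, it was 3.88-fold lower than WT, a value that leaves out the counting error of the WT reads. The ratio of shYY1 to shSCR was 4.30 with an interval from 0.890 to 40.9. Neither gene reached 50 reads in any pair of pools, so no level call was made. The microRNA genes inside H19 and Igf2, Mir675 and Mir483, had 0 reads in every pool. These libraries count only reads over strain differences, so that a low count can also come from a lack of such positions.

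All 6 reads of Igf2 and all 21 of H19 were from the 129 allele. With so few, the upper limit of 3 reads for the CAST share in WT was 60% for Igf2 and 30% for H19. The neighbours of Igf2, taken as genes within 2 Mb that do not overlap it, have at least 20 reads and are not listed as imprinted, numbered 31, 30, 33 and 32 in the 4 pools. Their median 129 share was 100% in every pool. In WT 26 of the 31 were at 90% or above, and 202 of their 6213 reads were CAST. The nearest on the side of lower coordinates was Ctsd, a lysosomal protease 263 kb away, with 106 129 and 0 CAST reads in WT. Beyond it, Tollip had 563 and 0 reads and Ap2a2 had 534 and 1. On the other side R74862, at 355 kb, had 121 and 0 reads, and Cars, a cysteine tRNA ligase at 0.890 Mb, had 37 and 18 and was the first gene there with at least 10% CAST reads. Tnfrsf26, at 941 kb, was again read from 129 alone, with 410 and 0 reads. Toward lower coordinates the first such gene was Gm4459, at 2.99 Mb, with 0 129 and 91 CAST reads.

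The rest of the chromosome 7 imprinted cluster gave the same reading. Of 21 listed genes, Igf2 and H19 included, 10 had no read in WT, and 13 of the 25048 reads of the cluster were CAST. Kcnq1ot1, a paternally transcribed antisense RNA of this cluster, had 23361 129 and 11 CAST reads in WT, 14444 and 6 in XiΔXist, 1128 and 0 in shSCR, and 1117 and 0 in shYY1. Cdkn1c, a maternally transcribed inhibitor of cyclin-dependent kinases, had 90 129 reads in WT and 0 in XiΔXist, beside 2 in shSCR and 5 in shYY1, with no CAST read. These genes are known for opposite parental alleles and were both read as 129. As CAST reads were few among the neighbours too, the shares here do not tell the parental chromosomes apart. Cd81, encoding a tetraspanin, had 390, 259, 94 and 166 reads in the 4 pools, and Osbpl5, an oxysterol-binding protein, had 393, 378, 150 and 90, none of them CAST. Nap1l4, a histone chaperone, had 166 129 and 2 CAST reads in WT, and Tnfrsf23, a decoy receptor for TRAIL, had 602 and 0. Tssc4, and Dhcr7, which encodes the enzyme of the last step of cholesterol synthesis, had 7 and 9 reads in WT and 49 and 14 in shSCR, all from 129. The 129 share of Igf2 and H19 therefore did not stand apart from that of the region.

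**Figure D1:**
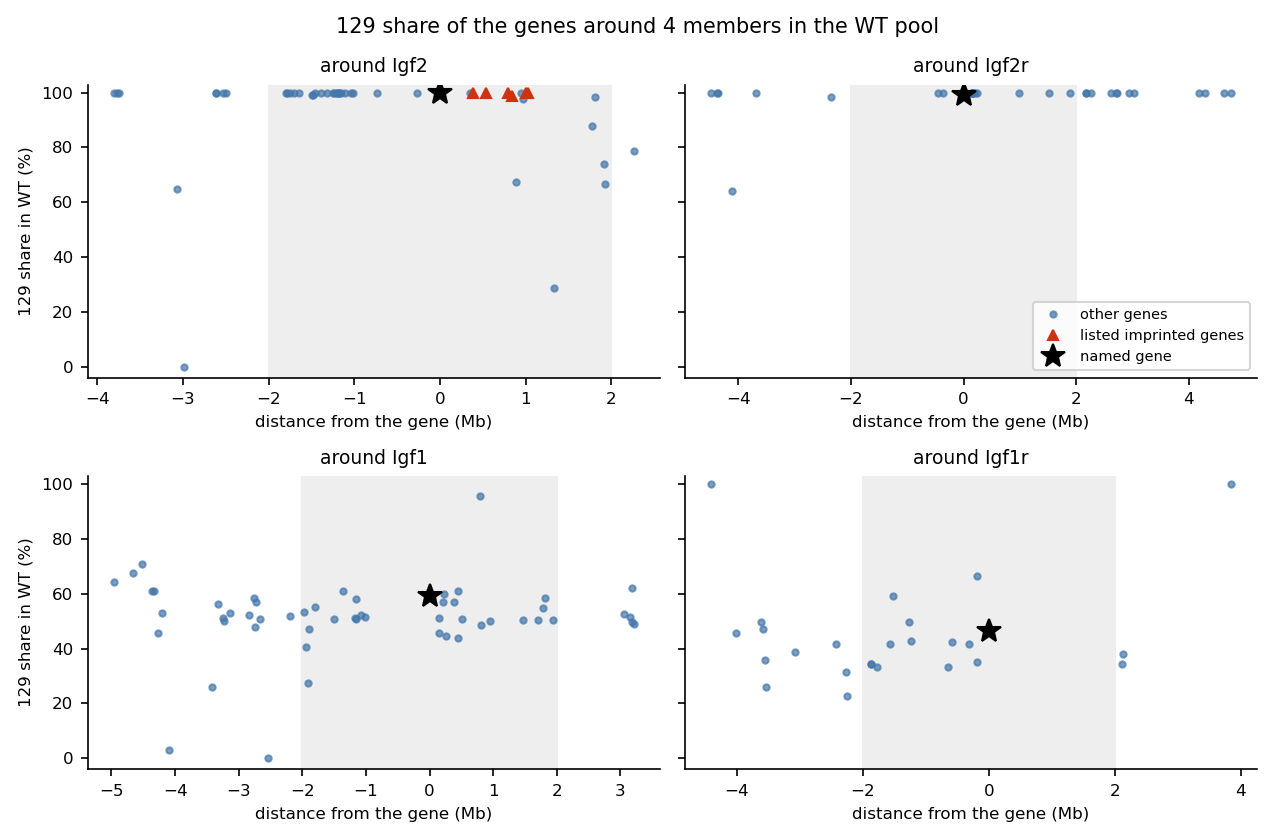
129 share (%) of each gene with at least 20 reads in the WT pool, against its distance in Mb from Igf2, Igf2r, Igf1 or Igf1r; the star is the named gene, triangles are listed imprinted genes and the grey band spans 2 Mb to each side. Around Igf2, 36 of 47 genes lie at 99% or above and 8 lie below 90%, around Igf2r 28 of 30 and 1 do, and around Igf1 and Igf1r the points scatter about neighbour medians of 51.0% and 41.7%.

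Igf2r (ENSMUSG00000023830, chr17:12682406-12769664, minus strand) was read in every pool, with 298, 362, 119 and 139 reads in WT, XiΔXist, shSCR and shYY1. Airn (ENSMUSG00000078247, chr17:12741311-12860136, plus strand) starts inside Igf2r and runs the other way, over 28.4 kb of its gene body. In the annotation their exons share 0 bases, and 114 of the 3597 exon bases of Airn lie inside the Igf2r body. Whether strand was used in counting is not given in the sources used here, and without it unspliced RNA of Igf2r over that stretch and Airn could not be told apart. The RefSeq promoter windows of the pair (GRCm38.p6, 250 bases before to 50 after the annotated start, 5′ to 3′) are shown because the 2 transcripts oppose each other and YY1 was targeted in a pool, with the letters GCCAT or their complement ATGGC, the core of the YY1 motif, in capitals. The window of Igf2r (chr17:12769657-12769956, minus strand) held 34 CpG and no match, and that of Airn (chr17:12741061-12741360, plus strand) held 3 CpG and 1 match, which begins 104 bases before the start.

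Igf2r: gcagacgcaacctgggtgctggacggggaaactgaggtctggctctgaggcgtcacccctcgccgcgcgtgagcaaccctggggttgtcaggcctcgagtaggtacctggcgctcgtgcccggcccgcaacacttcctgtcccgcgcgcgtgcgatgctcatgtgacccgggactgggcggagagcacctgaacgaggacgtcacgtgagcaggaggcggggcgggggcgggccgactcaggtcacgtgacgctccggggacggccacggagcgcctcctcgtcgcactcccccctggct

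Airn: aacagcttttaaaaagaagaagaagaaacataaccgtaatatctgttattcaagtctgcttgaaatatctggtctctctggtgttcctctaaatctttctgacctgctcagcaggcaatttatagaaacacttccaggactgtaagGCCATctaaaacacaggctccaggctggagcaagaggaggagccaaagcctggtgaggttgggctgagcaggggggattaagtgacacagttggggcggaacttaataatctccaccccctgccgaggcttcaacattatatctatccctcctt

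RefSeq held 10 windows for 7 of the 9 genes, 4 of them for Igf2. The core was found in 3 of the 10, those of Airn, Igf1 and the outermost start of Igf2, and in 40.5% of all 32851 windows, whose median was 7 CpG. The longer form AANATGGC or GCCATNTT, which contains the core, was in none of the 10 and in 6.05% of all windows. A match in letters is not a bound site.

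Levels of Igf2r differed by less than counting error between the untreated pools and between the hairpin pools. They were 12.3 CPM (10.9 to 13.7) in WT, 12.8 CPM (11.5 to 14.2) in XiΔXist, 49.7 CPM (41.2 to 59.5) in shSCR and 55.5 CPM (46.7 to 65.5) in shYY1. Intervals overlapped within each pair of pools and not between the pairs. XiΔXist was 1.04 times WT (0.892 to 1.22) and shYY1 was 1.12 times shSCR (0.868 to 1.44), so a 2-fold difference lay outside both intervals. Airn was at 0.905 CPM (0.567 to 1.37) in WT with 22 reads and at 0.282 CPM (0.122 to 0.556) in XiΔXist with 8. It was at 18.4 CPM (13.4 to 24.7) in shSCR with 44 reads and at 8.78 CPM (5.51 to 13.3) in shYY1 with 22. The intervals of each pair of pools did not overlap. Airn was 3.20-fold lower in XiΔXist than in WT (1.37 to 8.32), on reads below the minimum for a call, and 2.09-fold lower in shYY1 than in shSCR (1.23 to 3.67). The latter was a change of -0.99 on the scale of log2(CPM + 1) and did not reach the 2-fold call there, although with a pseudocount of 0.1 CPM it did, at -1.06. Its 9 neighbours with enough reads had a median change of 0.09 on that scale, and 0 of them were called.

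Reads of both genes were from 129. Igf2r had 296 129 and 2 CAST reads in WT, a 129 share of 99.3% (97.6 to 99.8), and 0 CAST reads in the other pools, where 3 reads would have been 0.829%, 2.52% and 2.16%. Airn had 0 CAST reads in all 4 pools, with limits of 13.6%, 37.5%, 6.82% and 13.6%. Igf2r and Airn, known for opposite parental alleles, were thus both read as 129. The 12 neighbours of Igf2r in WT held 2 CAST reads among 11151, the lowest of them at a 129 share of 99.95%, and no neighbour fell below 99.3% in the other pools. On the side of higher coordinates Mrpl18, Tcp1 and the small nucleolar RNA Snora20 had 59, 689 and 100 reads in WT with no CAST read. On the other side Map3k4 had 90 and 0, Agpat4 had 153 and 0, and Qk, an RNA-binding splicing regulator 2.36 Mb away, had 5499 and 87. The first gene with at least 10% CAST reads was Gm15425, at 4.11 Mb toward lower coordinates, and Ehmt2, a histone methyltransferase gene at 22.1 Mb toward higher ones. In between Igf2r and Ehmt2 lay 163 genes with 195 CAST reads among 147398. Neither Igf2r nor Airn had a 129 share that stood apart from its region. With so few CAST reads there, the share does not tell the parental chromosomes apart. Slc22a2 and Slc22a3, organic cation transporter genes of the same cluster, had 1 read between them, in Slc22a2 in XiΔXist.

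Such stretches were common. Of 10637 autosomal genes with at least 20 reads in WT, 39.6% had neighbours with a median 129 share of 99% or more. A gene was called apart where its 129 share differed by at least 40 percentage points from the median of at least 5 neighbours, which held for 4.53% and 4.89% of genes in WT and XiΔXist and for 2.51% and 2.91% in the hairpin pools. Of the 9 genes none was apart in any pool, among the 7, 6, 6 and 7 that had 20 reads. By the shape of its levels over the 4 pools, with log2(CPM + 1) centred on the mean, Igf2r was nearest to Gm16153, Gm16089 and Pex10, at distances of 0.029, 0.035 and 0.045 among 12143 genes. Igf2 and H19 had too few reads for this measure.

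**Figure D2:**
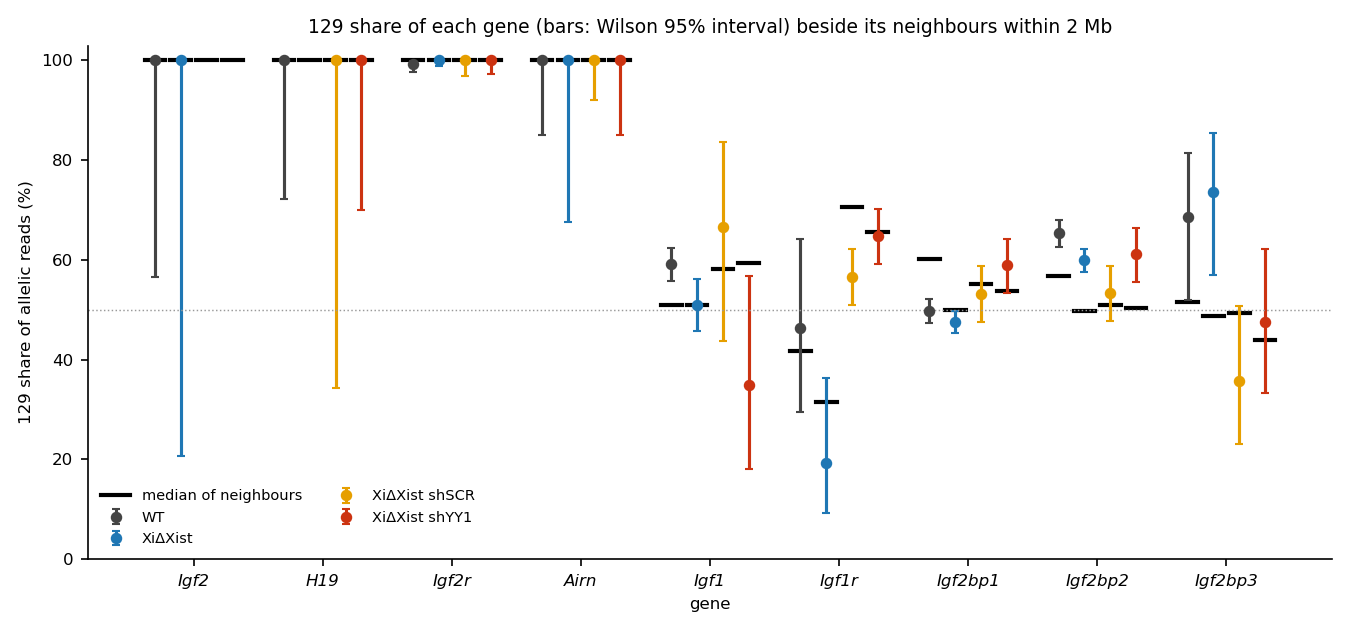
129 share (%) of the 9 genes in each pool with Wilson 95% intervals, beside the median of their neighbours within 2 Mb (black bars); a gene with 0 reads in a pool has no point. The 4 imprinted genes lie at or next to 100% together with their neighbours, and the other 5 lie between 19.4% and 73.5%.

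Igf1 (ENSMUSG00000020053, chr10:87858265-87937042, plus strand), which encodes the secreted growth factor of postnatal growth that fibroblasts also make, was lower in XiΔXist than in WT. It had 830 reads in WT and 345 in XiΔXist, beside 18 in shSCR and 20 in shYY1, at 34.1 CPM (31.9 to 36.5), 12.2 CPM (10.9 to 13.5), 7.52 CPM (4.46 to 11.9) and 7.99 CPM (4.88 to 12.3). WT was highest, and the intervals of the other 3 pools overlapped in part. XiΔXist was 2.80-fold lower than WT (2.47 to 3.19), a change of -1.42 on the log2(CPM + 1) scale, where the median over all genes was -0.11. Both alleles were lower, 129 by 3.25-fold from 491 to 176 reads and CAST by 2.34-fold from 339 to 169. Of 27 neighbours 1 was 2-fold higher and 2 were 2-fold lower, with a median of -0.10. Igf1 was the only one of the 6 genes with a sum of 50 reads or more that passed 2-fold, 16.7% of them, where 9.27% of all 10763 genes tested passed, 3.07% higher and 6.21% lower. The median change of the 6 was 0.01.

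The promoter window of Igf1 (chr10:87860861-87861160, plus strand) is shown as that of the gene called lower. It lies at the RefSeq start, downstream of the first base of the gene given above, and held 6 CpG and 2 matches to the YY1 core, in capitals, that begin 219 and 5 bases before the start.

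Igf1: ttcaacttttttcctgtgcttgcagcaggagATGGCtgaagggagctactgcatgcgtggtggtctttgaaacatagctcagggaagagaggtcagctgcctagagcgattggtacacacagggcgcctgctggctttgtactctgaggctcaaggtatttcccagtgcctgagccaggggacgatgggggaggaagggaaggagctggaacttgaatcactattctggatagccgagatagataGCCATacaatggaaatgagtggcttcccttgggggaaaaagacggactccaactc

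The 129 share of Igf1 was 59.2% (55.8 to 62.5) in WT and 51.0% (45.8 to 56.3) in XiΔXist, beside neighbour medians of 51.0% in both. The difference of 8.14 percentage points had an unadjusted p of 0.012 in Fisher's exact test and an adjusted p of 0.059 over all 11909 genes tested. This test compares the reads of 2 pools and not the conditions. In the hairpin pools the shares were 66.7% (43.7 to 83.7) and 35.0% (18.1 to 56.7), with 12 and 6 reads in shSCR and 7 and 13 in shYY1, and the adjusted p was 0.70 (Fisher's exact test). The ratio of shYY1 to shSCR was 1.06 with an interval from 0.533 to 2.13, on 38 reads.

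**Figure D3:**
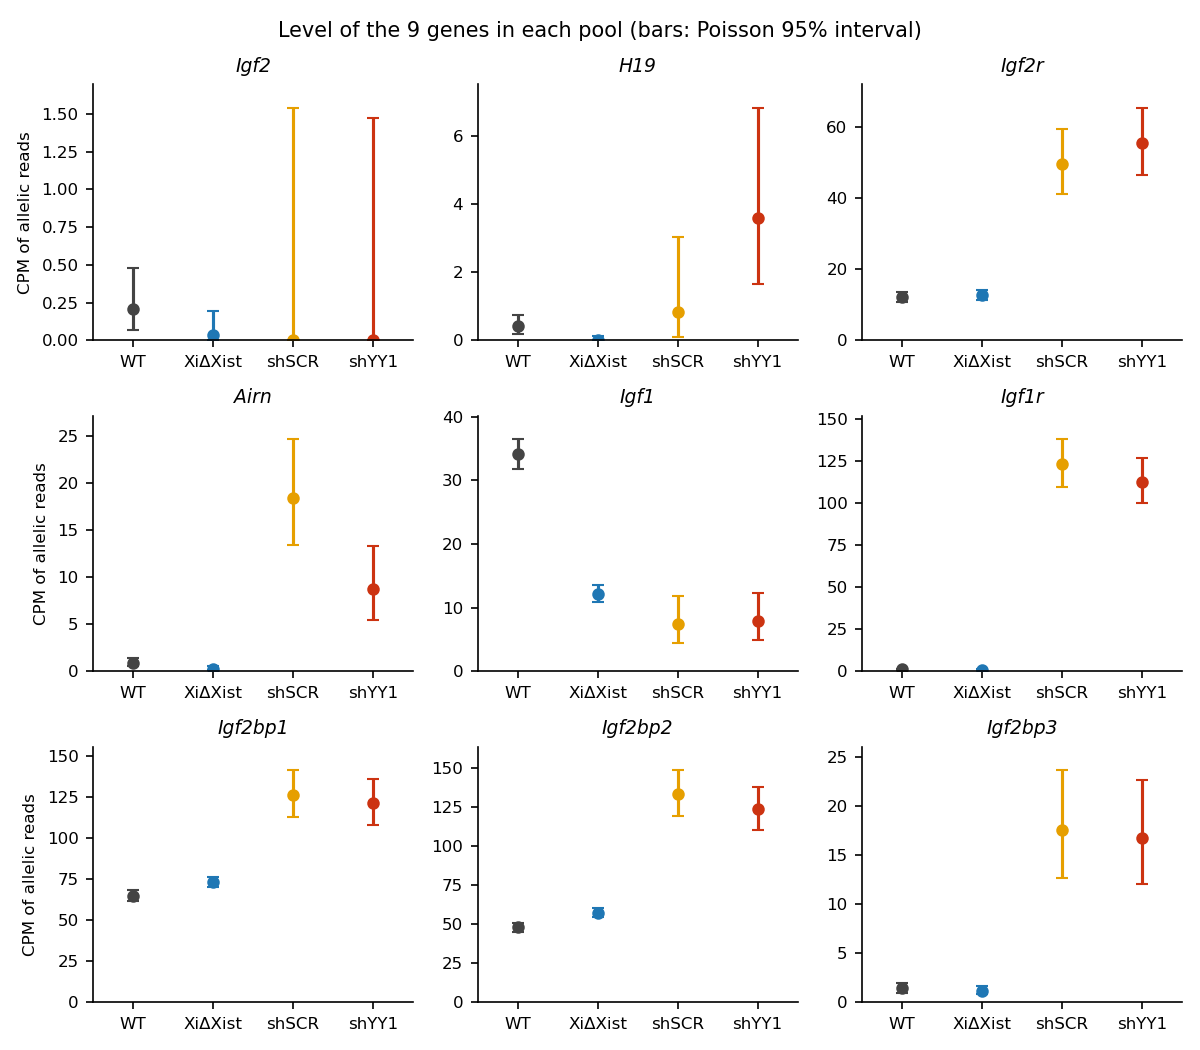
CPM of allelic reads of the 9 genes in each pool on linear axes that start at 0, with Poisson 95% intervals; each panel has its own scale. Igf1 was 34.1 CPM in WT and 12.2 CPM in XiΔXist, and Igf1r was near 1 CPM in both of these pools and above 110 CPM in both hairpin pools.

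Igf1r (ENSMUSG00000005533, chr7:67952827-68233668, plus strand), the signalling receptor for both ligands, was hardly read in the untreated pools and well read in the hairpin pools. It had 28 reads in WT and 31 in XiΔXist, beside 295 in shSCR and 282 in shYY1. These were 1.15 CPM (0.765 to 1.66), 1.09 CPM (0.744 to 1.55), 123 CPM (110 to 138) and 113 CPM (99.8 to 127). Intervals overlapped between WT and XiΔXist and between shSCR and shYY1. The ratio was 0.9501 (0.551 to 1.64) for XiΔXist to WT and 0.914 (0.773 to 1.08) for shYY1 to shSCR. The shSCR pool was 113-fold higher than XiΔXist (77.7 to 169).

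Both alleles of Igf1r were read in every pool, with 13 129 and 15 CAST reads in WT, 6 and 25 in XiΔXist, 167 and 128 in shSCR, and 183 and 99 in shYY1. The 129 share was 46.4% (29.5 to 64.2), 19.4% (9.19 to 36.3), 56.6% (50.9 to 62.1) and 64.9% (59.2 to 70.2). The medians of its neighbours were also lower in WT and XiΔXist, at 41.7% and 31.6%, than in shSCR and shYY1, at 70.7% and 65.6%. By Fisher's exact test the adjusted p was 0.20 for XiΔXist against WT, 0.49 for shYY1 against shSCR and 0.00078 for shSCR against XiΔXist. The nearest read neighbour on the side of lower coordinates, Ttc23, had 72 129 and 133 CAST reads in WT and 26 and 10 in shSCR.

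Igf2bp1 (ENSMUSG00000013415, chr11:95957163-96005940, minus strand) and Igf2bp2 (ENSMUSG00000033581, chr16:22059009-22163299, minus strand) were the best-read of the 9 genes. Per kilobase of exon Igf2bp1 was at 6.70 CPM and Igf2bp2 at 6.49 CPM in WT, above Igf1 at 3.45, Igf2r at 1.32, Airn at 0.252, Igf2bp3 at 0.176, H19 at 0.167, Igf1r at 0.0686 and Igf2 at 0.0359. As only reads over strain differences count, this order also depends on how many such positions each gene has, which was not measured. Igf2bp1 had 1578, 2077, 303 and 304 reads in the 4 pools, or 64.9 CPM (61.8 to 68.2), 73.3 CPM (70.2 to 76.5), 127 CPM (113 to 142) and 121 CPM (108 to 136). Igf2bp2 had 1168, 1628, 319 and 309 reads, or 48.0 CPM (45.3 to 50.9), 57.5 CPM (54.7 to 60.3), 133 CPM (119 to 149) and 123 CPM (110 to 138). Both were slightly higher in XiΔXist than in WT with intervals that did not overlap, by 1.13 times (1.06 to 1.21) and 1.20 times (1.11 to 1.29). In shYY1 they were 0.959 (0.815 to 1.13) and 0.926 (0.789 to 1.09) times shSCR, within counting error.

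Igf2bp3 (ENSMUSG00000029814, chr6:49085223-49214957, minus strand), the oncofetal member of the family, had 35, 34, 42 and 42 reads. Its levels were 1.44 CPM (1.00 to 2.00) in WT, 1.20 CPM (0.831 to 1.68) in XiΔXist, 17.5 CPM (12.6 to 23.7) in shSCR and 16.8 CPM (12.1 to 22.7) in shYY1. As with Igf1r, intervals overlapped within the untreated and within the hairpin pools and not between them. The ratio was 0.834 (0.504 to 1.38) for XiΔXist to WT and 0.956 (0.608 to 1.502) for shYY1 to shSCR.

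Allelic shares of the Igf2bp genes varied between pools. Igf2bp2 went from 764 129 and 404 CAST reads in WT to 975 and 653 in XiΔXist, a 129 share of 65.4% (62.6 to 68.1) and of 59.9% (57.5 to 62.2). Its adjusted p by Fisher's exact test was 0.018. That call was lost, at -1.71 percentage points, once CAST reads were rescaled so that the autosomal median share was 50%. That median was taken over all autosomal genes, also those in stretches read from 129 alone. In WT 36.8% of autosomal genes with at least 20 reads had a 129 share of 99% or more. The rescaling therefore does not decide whether the call holds. Igf2bp2 was the only one of 6 genes tested, 16.7%, with a called share between these pools. Of all 11909 genes 19.4% were called, 7.24% higher and 12.1% lower. Of those calls 37.4% were thus higher, against 62.6% with the rescaled CAST reads. Neighbours of Igf2bp2 had a median of 56.7% in WT and 49.7% in XiΔXist, a difference of the same sign. Igf2bp1 was at 49.7% (47.3 to 52.2) and 47.6% (45.4 to 49.7), and Igf2bp3 at 68.6% (52.0 to 81.4) and 73.5% (56.9 to 85.4). In shSCR and shYY1 the shares were 53.1% and 58.9% for Igf2bp1, 53.3% and 61.2% for Igf2bp2, and 35.7% and 47.6% for Igf2bp3. None of the 7 genes tested between shYY1 and shSCR had a called share, where 1.19% of 10070 genes did (0.636% higher and 0.556% lower), and the adjusted p was 0.49 or more for each by Fisher's exact test. At an unadjusted p below 0.05 the count was 1, Igf1r at 0.0498 by the same exact test.

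Between shYY1 and shSCR no level was called either, in 0 of the 6 genes with at least 50 reads, beside 2.43% of 8245 genes (1.09% higher and 1.33% lower). Their median change was -0.09 and that of all genes -0.08 on the log2(CPM + 1) scale. Between shSCR and XiΔXist, pools that differ in transduction, selection and depth, 5 of 7 genes were called higher and none lower, 71.4%, where 64.6% of 10444 genes were called, 39.7% higher and 24.9% lower. Their changes were 5.89 for Igf1r, 3.92 for Airn, 3.08 for Igf2bp3, 1.88 for Igf2r and 1.20 for Igf2bp2, with 0.78 for Igf2bp1 and -0.63 for Igf1. The median of the 7 was 1.88 and that of all genes 0.38. This comparison moved with base composition. Genes were put in 20 bins by the GC content of their longest annotated transcript. The median change went from -1.47 in the bin of lowest GC to 4.18 in that of highest, whereas the bins of XiΔXist against WT lay between -0.15 and -0.08.

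The bin of like GC content had a median change of 1.62 for Igf2r, 0.96 for Igf2bp2 and Igf1r, 1.17 for Igf2bp1, -0.11 for Airn and Igf2bp3, and -1.47 for Igf1. Relative to these, Igf1r was 4.93, Airn 4.03 and Igf2bp3 3.19 higher, Igf2r and Igf2bp2 were 0.26 and 0.23 higher, and Igf2bp1 was at -0.39. Igf1, at -0.63 before, was at 0.84 relative to its bin. Scaling with edgeR's TMM factors moved the median of all genes by -1.06, which left the same 3 genes called higher, took Igf2r to 0.78 and Igf2bp2 to 0.06, turned Igf2bp1 to -0.36 and called Igf1 lower at -1.67. The part of GC content in these changes was not tested. The shares of Igf1r and Igf2bp3 were called between shSCR and XiΔXist, 2 of the 6 tested, where 21.4% of 9548 genes were (11.1% higher and 10.3% lower). For Igf2bp3 the share was 37.8 percentage points lower, with an adjusted p of 0.0080 by Fisher's exact test.

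**Figure D4:**
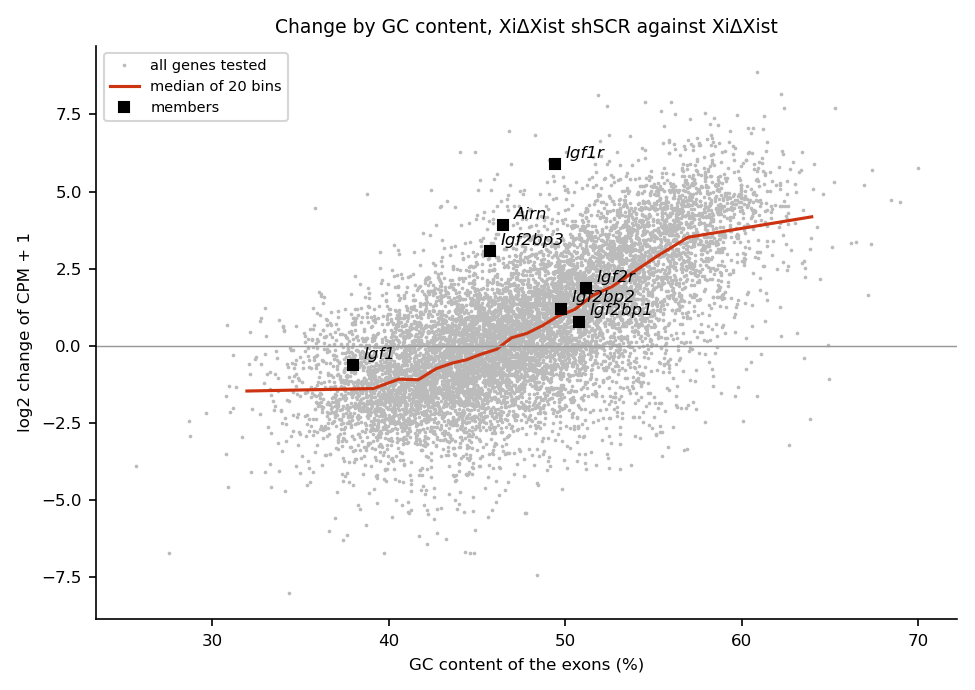
Change in level from XiΔXist to XiΔXist shSCR on the log2(CPM + 1) scale against GC content in percent. GC content is that of the longest annotated transcript of each gene, labelled on the axis as that of the exons. Shown are the 10413 genes tested whose GC content is known (grey), the median of 20 bins (red line) and the 7 members with at least 50 reads (black squares). Igf2r, Igf2bp2 and Igf2bp1 lie along the line, and Igf1r, Airn and Igf2bp3 lie 3 to 5 units above it.

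A list of 50 other genes of the axis, from ligands and binding proteins to downstream kinases, was read beside the 9. Between WT and XiΔXist 31 of them had at least 50 reads, of which 4 were higher and 6 lower, 32.3% beside 9.27% of all genes, with a median change of -0.14. Of the secreted proteins, 3 of 4 IGF-binding proteins tested and 3 of 3 proteases and inhibitors that act on them were called. The list was chosen with earlier results of these data known, so these counts cannot be read as a trait of the axis. Igfbp5, an IGF-binding protein of fibroblasts and bone, had 4 reads in WT and 228 in XiΔXist, 0.165 and 8.05 CPM, a ratio of 48.9 (18.8 to 181). Igfbp6, which binds IGF2 in preference, went the other way with 114 reads and 0, at least 44.3-fold lower with a floor of 3 reads. Igfbp4 had 11 and 61 reads, 0.452 and 2.15 CPM. Pappa, the protease that frees IGFs from IGFBP4, was 9.88-fold lower (6.62 to 15.3), at 9.42 and 0.953 CPM. The stanniocalcins, which inhibit that protease, differed in direction. Stc1 was 5.48-fold higher (4.46 to 6.80), at 4.32 and 23.7 CPM, and Stc2 was 6.92-fold lower (4.12 to 12.3), at 4.15 and 0.600 CPM. These counts are of 1 clonal line against another. In shSCR and shYY1, made from XiΔXist cells, Igfbp5 had 1 and 0 reads, Igfbp4 0 and 5, and Igfbp6 140 and 116. Pappa was at 5.01 and 7.59 CPM and Stc2 at 1.67 and 1.20 CPM there, and Stc1 had 0 reads in both.

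Inside the cell, 15 genes of signal transduction had enough reads and 2 were lower, 13.3%. Of all 10763 genes 9.27% were called, 3.07% higher and 6.21% lower. Grb10, an adaptor that restrains IGF and insulin receptor signalling, was 8.12-fold lower (6.83 to 9.71), at 42.4 CPM in WT and 5.22 CPM in XiΔXist, and Grb14, of the same family, was 2.099-fold lower (1.87 to 2.36). The other 13 did not reach 2-fold, among them Irs1 at 111 and 125 CPM and Rps6kb1 at 172 and 193 CPM. Among 7 regulators with enough reads 1 was higher and 1 lower, 28.6% beside the same 9.27%. Hmga2, a chromatin protein known to promote Igf2bp2 transcription, was 3.47-fold higher (3.40 to 3.55), at 442 and 1537 CPM. Lin28b, which blocks let-7 maturation, was 10.7-fold lower (4.28 to 34.6) on 46 and 5 reads. Receptors did not pass, with Insr at 22.7 and 20.01 CPM and M6pr, the small mannose 6-phosphate receptor, at 91.3 and 91.9 CPM. The insulin genes Ins1 and Ins2 and the binding proteins Igfbp1 and Igfbp2 had 0 reads in every pool. In shSCR and shYY1 Grb10 was at 30.1 and 28.8 CPM, Grb14 at 2.51 and 3.59 CPM and Hmga2 at 951 and 859 CPM. Lin28b had 0 reads in both of these pools.

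**Figure D5:**
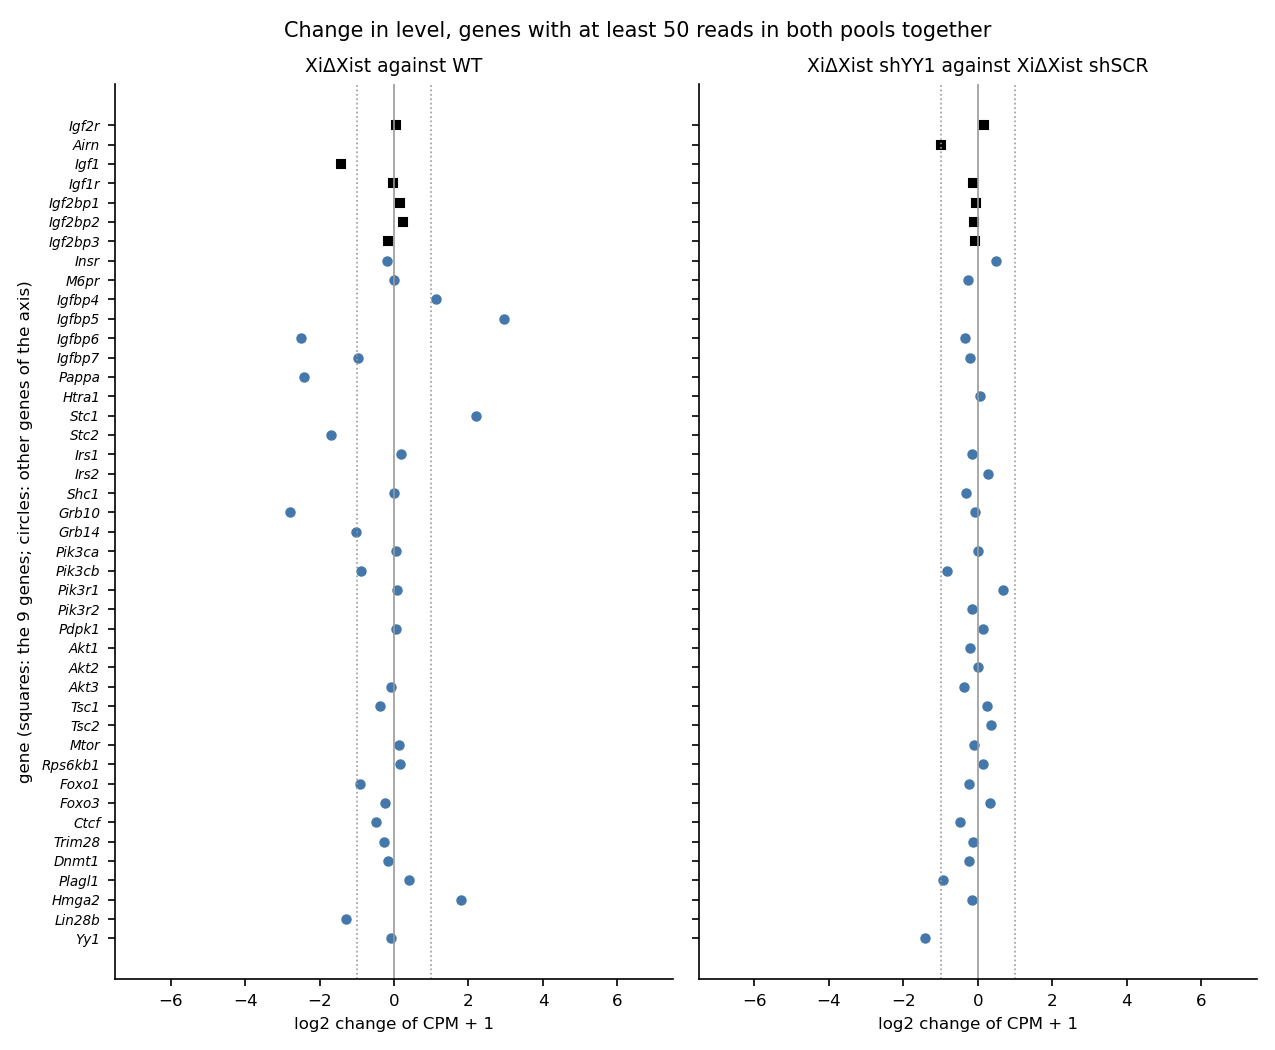
Change in level on the log2(CPM + 1) scale for XiΔXist against WT (left) and XiΔXist shYY1 against XiΔXist shSCR (right), for each member (squares) and the other axis genes (circles, 1 not drawn) whose reads in the pair sum to 50 or more; dotted lines mark 2-fold. On the left 10 circles and 1 of 6 squares pass a line, and on the right only the circle of Yy1 passes.

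Between shYY1 and shSCR 30 of the 50 were tested, and Yy1 itself was the 1 gene called, lower by 2.70-fold (2.11 to 3.47), 3.33% beside 2.43% of all genes. Their median change was -0.13. Between shSCR and XiΔXist 17 of 33 were higher and 6 lower, beside 64.6% of all genes called, with a median of 1.27. The kinase gene Akt1 was at 0.635 CPM in XiΔXist and 290 CPM in shSCR with 18 and 694 reads, a change of 7.48, which was 3.29 above the median of its GC bin. Trim28, a corepressor that maintains imprints, was at 1.52 and 214 CPM, and Pik3r2, a regulatory subunit of PI3-kinase, at 0.635 and 52.2 CPM. Relative to their bins these were 2.23 and 0.84 higher, so that Pik3r2 no longer reached 2-fold. Igfbp6 and Irs2, an insulin receptor substrate, had 0 reads in XiΔXist and 140 and 53 in shSCR, at least 552-fold and 209-fold higher with a floor of 3 reads. Their log2(CPM + 1) changes of 5.89 and 4.53 became 1.71 and 1.02 relative to their bins. Stc1 had 671 reads in XiΔXist and 0 in shSCR, at least 18.9-fold lower. With bin medians subtracted, 8 of the 17 higher and 3 of the 6 lower genes were still called. In all, 9 of the 33 were then higher and 5 lower, beside 2559 higher and 2599 lower of all 10413 genes.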

How the data were processed

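Allelic RNA-seq was analysed in 8 samples, a 129 and a CAST table for each of 4 groups. The deposited values are raw counts of reads per Ensembl gene, not normalized. The study's methods state that the authors pooled replicates, aligned reads with TopHat to an mm10 genome masked at strain differences, dropped reads of mapping quality below 30, split them by allele with SNPsplit and counted exons with featureCounts 1.6.3. The annotation release and the strand setting are not given in the sources used here. Positions came from GENCODE M21 on GRCm38, which held 45229 of the 46078 IDs, and promoters from RefSeq (GRCm38.p6), with no entry for H19 or Igf2bp1.

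CPM used all allelic reads of a pool. Between 20.2% and 39.5% of a pool was mitochondrial, and the nuclear 129 share was between 71.1% and 71.5%. With 1 pool per group no test of conditions was possible. Levels were called at 2-fold on log2(CPM + 1) for genes whose reads in the pair of pools sum to 50 or more, and shares by a two-sided Fisher's exact test on the reads of both pools, with Benjamini-Hochberg adjustment over all genes with at least 10 reads in each, at an adjusted p under 0.05. Shares carry Wilson and levels Poisson 95% intervals, and a count of 0 was set against 3 reads, 0.123, 0.106, 1.25 and 1.20 CPM in the 4 pools. Both kinds of interval cover counting error only, since PCR copies are not independent molecules. A fold given as at least some value, from the floor of 3 reads, leaves out the counting error of the other pool. The 9 genes and all lists were chosen with earlier results of these data known. Beside them, the text names cluster genes with at least 20 reads, the 3 nearest readable neighbours on each side of an imprinted gene, the 3 genes most like Igf2r and up to 6 axis genes with the largest change past 2-fold per comparison, and any gene beyond this rule was chosen after its values were seen. Values of 2 listed genes are not reported here. On simulated reads the share test recovered 67.0% of 200 changed genes among 11909 at the depth of WT and XiΔXist. It recovered 36.5% among 10070 for shYY1 against shSCR and 44.5% among 9548 for shSCR against XiΔXist. The shares of the changed genes were shifted by 10, 20 or 40 percentage points. At 10 points 54.4%, 4.29% and 8.77% were recovered in these comparisons, in the same order. At 20 points the values were 65.1%, 32.1% and 41.1%, and at 40 points 81.2%, 68.8% and 77.1%. Python 3.11.15, numpy 2.4.6, pandas 2.3.3, scipy 1.17.1, matplotlib 3.10.9 and, for scaling factors, R 4.3.3 with edgeR 4.0.16 and DESeq2 1.42.0 were used.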

Additional observations from a re-analysis of the deposited data

How the results depend on the processing

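The alternatives were the library total (nuclear reads, edgeR's TMM factors or DESeq2's size factors), a pseudocount of 0.1 CPM, no filter on low counts, a 1.5-fold call, other rules for shares, and other definitions of neighbours. Subtracting the median of GC bins was added after seeing the data. No paired analysis was possible because each group was 1 pool with no replicate columns, and for the same reason no replicate could be left out. No called value reversed under any of them, and none of the 5 to 7 of the 9 genes with enough reads in a pool stood apart from its neighbours under any of these definitions. Igf2 and H19 never had the 20 reads this needs.

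For levels, the count of all genes called between XiΔXist and WT, 998, became 2140 at 1.5-fold. Igf1 was the sole call among the 9 genes under every setting. TMM and DESeq2 factors raised the median change of all genes there by 0.12 and 0.19, and 33.1% of calls were higher as reported, against 40.3% and 45.2%. Between shYY1 and shSCR the 200 genes called became 2384 with no filter and 1117 at 1.5-fold, and the 0 of the 9 genes called became 1 at a pseudocount of 0.1 CPM or at 1.5-fold, where Airn was lower, and 1 with no filter, where H19 was higher. Of those calls 45.0% were higher as reported, 57.7% with nuclear totals, 58.1% with TMM, 58.9% with DESeq2 factors and 64.0% with GC bins. Between shSCR and XiΔXist 61.4% were higher as reported, 36.0% with TMM, 36.8% with DESeq2 factors, 49.6% with GC bins and 72.5% with no filter, and the 5 of the 9 genes called became 3 with GC bins, without Igf2r and Igf2bp2. The cause of these shifts was not tested, except that fewer or more genes pass by construction when the filter or the fold is changed.

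For shares between XiΔXist and WT, 2307 genes called became 5251 with a 3-point difference in place of the test and 930 among genes that overlap no other. The count within the 9 genes, 1, became 2 at a minimum of 50 reads (Igf2bp2 and Igf1), 4 with the 3-point difference and 0 with CAST reads scaled to a median autosomal share of 50%, where 1968 genes were higher and 1177 lower, against 862 and 1445 as reported. Between shYY1 and shSCR 120 became 4499, 52 and, with the scaling, 874, and 0 of the 9 became 5 with the 3-point difference. Between shSCR and XiΔXist 2041 became 4955 and 891, and 2 of the 9 became 0 at 50 reads, where Igf1r and Igf2bp3 were no longer tested, 5 with the 3-point difference and 1 among genes that overlap no other. With the scaling the 1057 higher and 984 lower became 1044 and 1954, and 3 of the 9 were called, Igf2bp2 among them at -10.8 percentage points. The scaling raised CAST counts and the test took the raised counts as reads, so its p-values and counts of calls overstate the evidence. On unscaled reads Igf2bp2 had an adjusted p of 0.12 by Fisher's exact test.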

Other observations

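Other imprinted genes were read in regions where both alleles were present, and these were named after their values were seen. In WT, 18 listed imprinted genes with at least 20 reads had neighbours with a median between 10% and 90%, of which 11 stood apart from them by at least 40 percentage points, and 15 had neighbours with a median above 90% or below 10%, of which 1 did. Meg3, Rian and Mirg, noncoding RNAs transcribed from the maternal chromosome 12, had 161, 5892 and 111 129 reads with 0, 12 and 1 CAST reads, beside neighbour medians of 49.6%, 49.0% and 49.3%. Peg10 and Sgce, paternally transcribed neighbours on chromosome 6, had 0 and 2 129 reads with 1762 and 1331 CAST reads, beside 50.5%. Mkrn3 and Peg12, paternally transcribed genes of chromosome 7, had 0 and 1 129 reads with 61 and 731 CAST reads, beside 47.0%. Nnat, a paternally transcribed gene of chromosome 2, had 6 and 194. Asb4 and Pon2, known as maternally transcribed in some tissues, had 43 and 276 129 reads with 3 and 16 CAST reads. Tfpi2, also listed as maternally transcribed, had 29 and 997. Ppp1r9a, a neighbour of these that is maternally transcribed in some tissues, had 11 and 67, a distance of -35.3 points from its neighbours. Airn, Kcnq1ot1 and Peg3, known as paternally transcribed, were read from 129, as their neighbours were. Which strain was the mother of these lines is not given in the sources used here.

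Mcts2, with 211 129 and 235 CAST reads, was the gene of the second kind that stood apart, beside a neighbour median of 97.4%. Inpp5f had 1219 and 616 reads beside a median of 100%, a distance below 40 points.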
